A study of Rattus norvegicus with 3 samples.

Results

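The genes described here encode 10 peptide precursors found in or around the chromaffin cells of the rat adrenal medulla: Npy, Penk, Gal, Tac1, Nts, Calca, Adm, Adcyap1, Vip and Sst. They were chosen by name, and every probe set that the platform annotation gave to exactly 1 of them was taken. They are 10 of the 14217 genes named on the array, and this gave 13 of its 31042 gene probe sets, with 1 probe set for 8 of the genes, 2 for Adcyap1 and 3 for Calca. The samples were total RNA from the adrenal medulla of rats kept in the cold, with 1 array after 7 days and 2 arrays after 1 day, lettered a and b. The labels give no strain, sex or age and are silent on whether the 1-day letters are separate animals, so their spread may be purely technical. No unexposed rats were analysed here, and the comparison open to the data is 7 days against 1 day of cold.

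A peptide precursor is made in the endoplasmic reticulum, cut at pairs of basic residues by prohormone convertases inside the secretory granule, and stored there with adrenaline and noradrenaline. Nerve stimulation releases peptide and catecholamine together, and the cell then has to make new precursor from its mRNA. Many peptide genes carry a cyclic AMP response element (CRE) near their start, through which calcium and cyclic AMP signals raise transcription, and the somatostatin promoter is the textbook case.

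Promoter windows from RefSeq (assembly GRCr8), each with 250 bases before and 50 after the annotated start, were found for 9 of the 10 genes. Only these letters were searched, on both strands: the CRE letters TGACGTCA, the CRE half-site TGACG (which the full CRE also contains), and the AP-1 letters TGACTCA. The full CRE was in 1 of the 9 windows, that of Sst, against 1.83% of all 33469 windows of this length. The half-site was in 6 of 9 (Gal, Tac1, Nts, Calca, Vip and Sst), against 21.2% of all, and the AP-1 letters were in 1 of 9 (Nts), against 4.63%. A match describes the letters and is not evidence of binding. Windows and positions count from the annotated start, which was not checked in this tissue, so a window can miss promoter bases. The windows of 4 of the 6 genes that hold these letters are shown, and those of Gal and Tac1, with the half-site only, are not. In the array data Sst was near background, and Nts and Vip were above it on all 3 arrays. Capitals mark the CRE, half-site or AP-1 letters, and each sequence runs 5′ to 3′ on the strand of the gene.
Sst, chr11:90461296-90461595, + strand, CRE letters at bases 3 to 10 after the annotated start: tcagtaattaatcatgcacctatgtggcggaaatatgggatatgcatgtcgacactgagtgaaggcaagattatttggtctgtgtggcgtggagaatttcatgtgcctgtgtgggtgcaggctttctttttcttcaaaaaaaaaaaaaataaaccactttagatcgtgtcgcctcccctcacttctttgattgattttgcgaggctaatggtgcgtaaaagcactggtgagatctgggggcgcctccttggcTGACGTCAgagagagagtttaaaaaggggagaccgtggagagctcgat
Vip, chr1:44470230-44470529, + strand, half-site starting 97 bases before the start: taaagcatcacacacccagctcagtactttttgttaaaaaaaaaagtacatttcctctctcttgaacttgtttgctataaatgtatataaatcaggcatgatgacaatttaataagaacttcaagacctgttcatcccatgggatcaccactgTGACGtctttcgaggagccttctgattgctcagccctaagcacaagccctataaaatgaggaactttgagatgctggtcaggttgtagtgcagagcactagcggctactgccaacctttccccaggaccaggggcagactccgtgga
Calca, chr1:178317480-178317779, - strand, half-site starting 112 bases before the start: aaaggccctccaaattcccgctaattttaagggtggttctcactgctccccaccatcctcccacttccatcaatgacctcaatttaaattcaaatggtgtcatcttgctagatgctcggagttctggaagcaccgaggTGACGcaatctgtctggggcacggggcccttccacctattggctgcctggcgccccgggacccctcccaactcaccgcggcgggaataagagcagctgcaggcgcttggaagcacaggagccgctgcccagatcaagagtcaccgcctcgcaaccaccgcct
Nts, chr7:39460839-39461138, - strand, AP-1 letters starting 212 and half-site 171 bases before the start: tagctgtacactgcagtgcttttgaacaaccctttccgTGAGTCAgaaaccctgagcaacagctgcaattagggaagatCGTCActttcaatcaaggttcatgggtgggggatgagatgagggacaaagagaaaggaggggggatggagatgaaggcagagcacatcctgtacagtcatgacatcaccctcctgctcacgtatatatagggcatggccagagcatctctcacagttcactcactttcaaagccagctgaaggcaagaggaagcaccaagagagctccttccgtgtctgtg

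One array has to be known before the values are read. Array a of the 1-day pair stood apart from both others: across gene probe sets its Spearman correlation was 0.684 with the 7-day array and 0.664 with 1-day array b, while the 7-day array and 1-day array b correlated at 0.939. The 3′ over 5′ ratio of the beta-actin probe sets was 8.87 on the 7-day array, 231 on 1-day array a and 6.11 on 1-day array b. Dim probe sets read high on 1-day array a: the median intensity was 675 on the 7-day array, against 1583 on 1-day array a and 593 on 1-day array b. Each difference is therefore given against each 1-day array separately as well as against their mean. To judge dim signal, 32 probe sets of 28 genes that belong to other tissues (photoreceptor, sperm, pancreas and milk genes among them) were read on the same arrays. Their 90th percentile was 361 on the 7-day array, 1461 on 1-day array a and 326 on 1-day array b, and a value at or below it is called near background. The highest of them read 780 on the 7-day array, 4473 on 1-day array a and 659 on 1-day array b. On array a only Npy, Penk and Nts among the members exceeded that highest value.

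The RNA carried both chromaffin and cortex transcripts. Of 13 chromaffin cell markers 11 were on the array. All 11 passed the filter on low values (a mean log2 level at or above the median of all gene probe sets, 9.60). Their summed intensity was 1199150 on the 7-day array, 2417710 on 1-day array a and 1039020 on 1-day array b. Chga, Chgb and Dbh carried the sum on 1-day array a, while 6 of the 11 markers read lower there than on 1-day array b (median array a minus array b -0.49). Of 10 adrenal cortex markers 8 were on the array and all 8 passed. Their sum was 1345670 on the 7-day array, 1959960 on 1-day array a and 1014590 on 1-day array b. Cortex RNA was thus present on every array of a tissue labelled medulla. None of these 19 markers was near background on all 3 arrays. In tissue RNA, fewer cells of a type and less RNA per cell cannot be told apart.

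The array ranked the precursors very differently in brightness, though levels of different probe sets are not comparable as amounts of RNA. Npy, Penk and Nts lay above the 96th percentile of gene probe sets on each of the 3 arrays, whereas Sst and both Adcyap1 probe sets lay at or below percentile 34.7 on the 7-day array and 1-day array b. All values below are scaled intensities, or log2(intensity + 16) where stated.

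**Figure D1:**
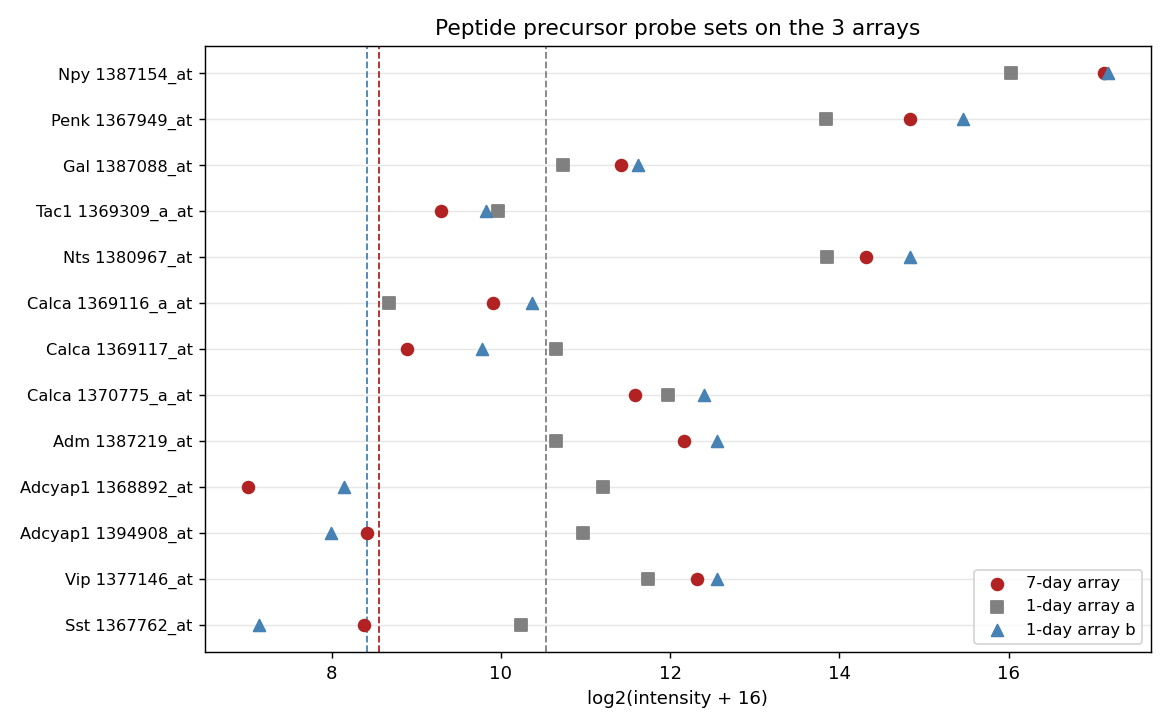
Level of each peptide precursor probe set, as log2(intensity + 16) on the x axis, with 1 point per array (circle 7-day, square 1-day array a, triangle 1-day array b). Dashed lines mark, in the colour of each array, the 90th percentile of genes of other tissues (8.56 on the 7-day array, 10.53 for 1-day array a and 8.42 for 1-day array b), and Npy is the brightest at 16.03 to 17.17.

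Npy encodes neuropeptide Y, a vasoconstrictor that chromaffin cells and sympathetic neurons release with catecholamines. Its probe set 1387154_at read 143523 on the 7-day array, against 66780 on 1-day array a and 147468 on 1-day array b. On the log2 scale these were levels of 17.13, 16.03 and 17.17. The 7-day array and 1-day array b were almost level, with a difference of -0.04, while 1-day array a was the low one, 1.10 below the 7-day array. With quantile normalisation the difference from 1-day array b was -0.45.

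Penk encodes proenkephalin, the source of the opioid enkephalins that are stored in adrenaline cells and damp further release. Probe set 1367949_at read 29224 on the 7-day array, against 14642 on 1-day array a and 45064 on 1-day array b (log2 levels 14.84, 13.84 and 15.46). The 7-day value thus fell between the 1-day values. It was 0.62 lower than 1-day array b and 1.00 higher than 1-day array a on the log2 scale. Among the 3105 gene probe sets of the brightest 10%, the difference from 1-day array b stood at percentile 0.773, with a median of 0.02 over those probe sets.

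Nts encodes the precursor of neurotensin, a peptide known in a subset of adrenal chromaffin cells of some mammals and in gut and brain. Probe set 1380967_at read 20455 on the 7-day array, against 14838 on 1-day array a and 29338 on 1-day array b (log2 levels 14.32, 13.86 and 14.84). The order of the arrays was the same as for Penk, with the 7-day array between the others, though removing the intensity trend, or quantile normalisation, put it below both. It was 0.52 lower than 1-day array b and 0.46 higher than 1-day array a. The difference from array b stood at percentile 1.48 among the same 3105 probe sets, where that of Npy stood at percentile 37.9. Such a percentile ranks 1 array against 1 and is not a test.

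Gal encodes the precursor of galanin, which is expressed in chromaffin cells and nerve fibres and is raised in neurons by injury. Probe set 1387088_at read 2729 on the 7-day array, 1679.7 on 1-day array a and 3130.3 on 1-day array b (log2 levels 11.42, 10.73 and 11.62). Again the 7-day array lay between the 1-day arrays, 0.20 below array b and 0.69 above array a. The Gal value on 1-day array a was little above the near-background line of 1461 there.

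Vip encodes vasoactive intestinal peptide, a vasodilator of nerve fibres and ganglion cells in the gland. Probe set 1377146_at read 5084 on the 7-day array, 3415 on 1-day array a and 6016 on 1-day array b (log2 levels 12.32, 11.74 and 12.56). The 7-day array was 0.24 below 1-day array b and 0.57 above 1-day array a. Adm encodes adrenomedullin, a vasodilator first isolated from phaeochromocytoma and also made by endothelium and cortex. Probe set 1387219_at read 4571 on the 7-day array, 1596 on 1-day array a and 6025 on 1-day array b (log2 levels 12.16, 10.65 and 12.56). The 7-day array was 0.40 below 1-day array b and 1.51 above 1-day array a. Adm had the widest gap between the 1-day arrays among probe sets that passed the filter, with array a minus array b at -1.91. The Adm value on 1-day array a was little above the near-background line of 1461 there.

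Tac1 encodes the precursor of substance P and neurokinin A, tachykinins of sensory nerves and some chromaffin cells. Probe set 1369309_a_at read 609 on the 7-day array, against 984 on 1-day array a and 894 on 1-day array b (log2 levels 9.29, 9.97 and 9.83). The 1-day arrays lay 0.14 apart, the closest pair among the 13 probe sets, and the 7-day array was below both, by 0.68 from array a and 0.54 from array b. The value on 1-day array a was near background, so the agreement of the pair rests on 1 reading above the dim range. With quantile normalisation the 7-day array moved to between the 1-day arrays, and likewise with median centring and with the intensity trend removed.

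Calca encodes calcitonin and calcitonin gene-related peptide (CGRP), 2 hormones made from 1 gene by alternative splicing, CGRP being the product of neurons. It had 3 probe sets, and the sources used here do not give which product each one reads. The brightest, 1370775_a_at, read 3063 on the 7-day array, against 3990.1 on 1-day array a and 5382 on 1-day array b (log2 levels 11.59, 11.97 and 12.40). The 7-day array was below both, by 0.38 and 0.81. Probe set 1369117_at read 459.6 on the 7-day array, against 1589 on 1-day array a and 863 on 1-day array b (log2 levels 8.89, 10.65 and 9.78), which put the 7-day array 1.76 and 0.89 below. Its value on 1-day array a was little above the near-background line of 1461 there. Probe set 1369116_a_at read 943 on the 7-day array, against 392 on 1-day array a and 1311 on 1-day array b (log2 levels 9.91, 8.67 and 10.37). Here 1-day array a was near background and the 7-day array was 1.23 above it, while it was 0.47 below 1-day array b. All 3 Calca probe sets thus read lower at 7 days than on 1-day array b, but they disagreed in sign against 1-day array a.

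Adcyap1 encodes PACAP, the peptide that splanchnic nerve endings use with acetylcholine to drive chromaffin cells. The cell bodies of those nerves lie in the spinal cord, so the mRNA for that pool of peptide is made outside the gland. Probe set 1368892_at read 113 on the 7-day array, against 2346 on 1-day array a and 267 on 1-day array b (log2 levels 7.01, 11.21 and 8.15). Probe set 1394908_at read 325 on the 7-day array, against 1990.5 on 1-day array a and 239.6 on 1-day array b (log2 levels 8.42, 10.97 and 7.998). On the 7-day array and 1-day array b both probe sets were near background, and they differed in direction between those arrays (-1.13 and 0.42). Only on 1-day array a were they above the near-background line. Dim probe sets read high on that array, where the genes of other tissues reached 4473.

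Sst encodes somatostatin, which inhibits secretion in many endocrine tissues. Probe set 1367762_at read 318 on the 7-day array, against 1189 on 1-day array a and 126 on 1-day array b (log2 levels 8.38, 10.24 and 7.15). All 3 values were near background, so differences between them are between background readings. Sst, and both probe sets of Adcyap1, did not pass the filter on low values.

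**Figure D2:**
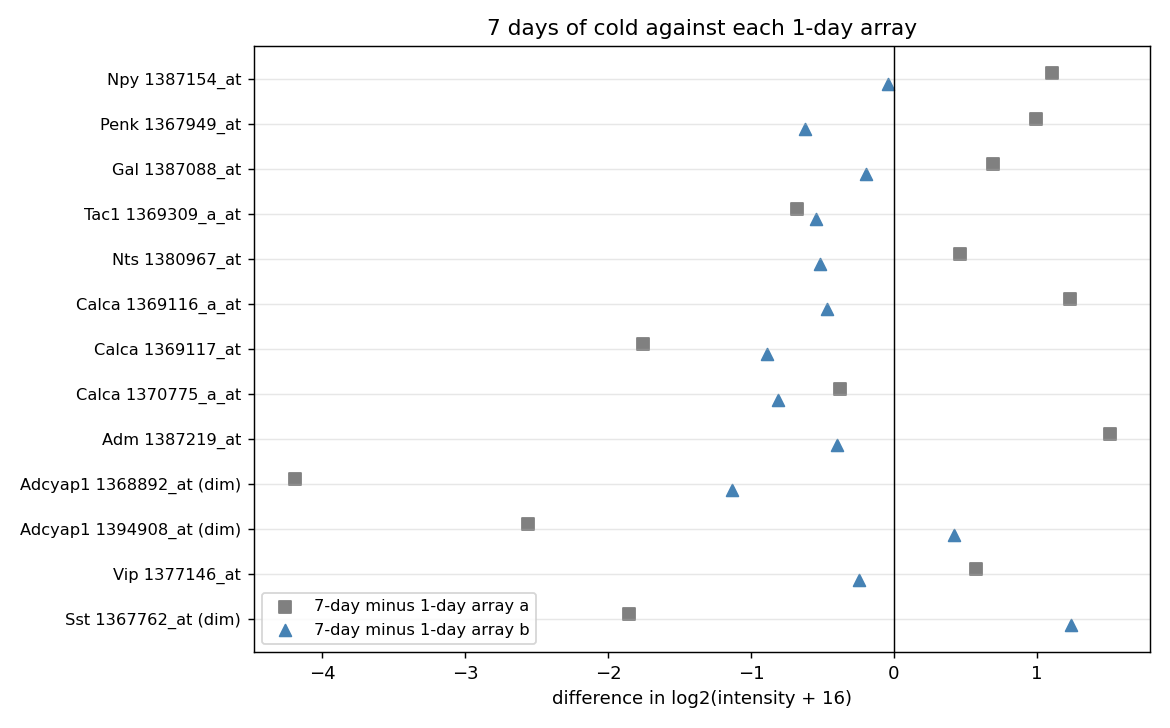
Difference in log2(intensity + 16) between the 7-day array and 1-day array a (grey squares) or 1-day array b (blue triangles) for each probe set, with (dim) marking those under the filter. The triangles lie left of 0 for 11 of the 13 probe sets, while the squares lie left of 0 for 6 and right of 0 for 7.

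Setting the longer against the shorter stay in the cold asks whether the precursors differed with the length of exposure. No member passed the test. In limma's fit on all 15521 probe sets that passed the filter, 0 had an adjusted p under 0.05 (0% of those tested, with 70 at an unadjusted p under 0.05). Of the 13 member probe sets, 10 from 8 genes entered that fit, 0 were called and 0 had an unadjusted p under 0.05. The lowest unadjusted p from limma among them was 0.512, for Calca 1370775_a_at, with a difference of -0.59 ± 0.91 from the mean of the 1-day arrays (SE from limma, adjusted p = 1). The fit has 1 residual degree of freedom, from the 1-day pair, and its SEs follow the intensity trend of that pair.

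Against the mean of both 1-day arrays, differences among the 10 tested probe sets ran from -1.32 (Calca 1369117_at) to 0.56 (Adm). Npy stood at 0.53 ± 1.11, Penk at 0.19 ± 1.01, Gal at 0.25 ± 0.93, Nts at -0.03 ± 1.00, Vip at 0.16 ± 0.91 and Tac1 at -0.61 ± 2.44 (limma, adjusted p = 1 for each). Each of these 6 differences was smaller than its SE. The median over the 10 was 0.18, against -0.03 over all 15521.

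Counted by order alone, the 7-day array read below both 1-day arrays for 4 of 13 probe sets (Tac1, Calca 1369117_at, Calca 1370775_a_at and Adcyap1 1368892_at), against 27.6% of all gene probe sets. It read above both for 0 of 13, against 18.8%. It lay between them for the other 9. One probe set, Adcyap1 1368892_at, lay at least 2-fold beyond both 1-day arrays, against 6.99% of all gene probe sets, and it was near background on the 7-day array and 1-day array b. The 1-day arrays themselves were at least 2-fold apart for 7 of 13 member probe sets, against 62% of all.

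Set against 1-day array b alone, the array most like it, the 7-day array read lower for 11 of 13 probe sets, against 43% of all gene probe sets. Among the 10 that passed the filter, which come from 8 genes, all 10 read lower, against 50% of the 15521. Their median was -0.49, against 0.00 over the 15521. Of the 10, Tac1 and Calca 1369117_at passed only through their 1-day levels. Their 7-day levels of 9.29 and 8.89 were under the cut-off of 9.60. With quantile normalisation, median centring or the intensity trend removed, the 10 also read lower, with medians of -0.49, -0.68 and -0.59. Median centring, though, put 72.2% of all probe sets that passed the filter lower as well and moved their median to -0.18. Pseudocounts of 1 and 64 gave medians of -0.50 and -0.48 for the 10. They do not test the direction, because adding the same amount to both arrays cannot change which array reads lower. Adcyap1 1394908_at and Sst, the 2 that read higher, were near background on both arrays. This sets 1 array against 1 and has no test. Against 1-day array a, 7 of the 13 read higher, against 34.2% of all gene probe sets, and among the 10 that passed the filter 7 read higher, against 47.1% of the 15521, with a median of 0.63.

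**Figure D3:**
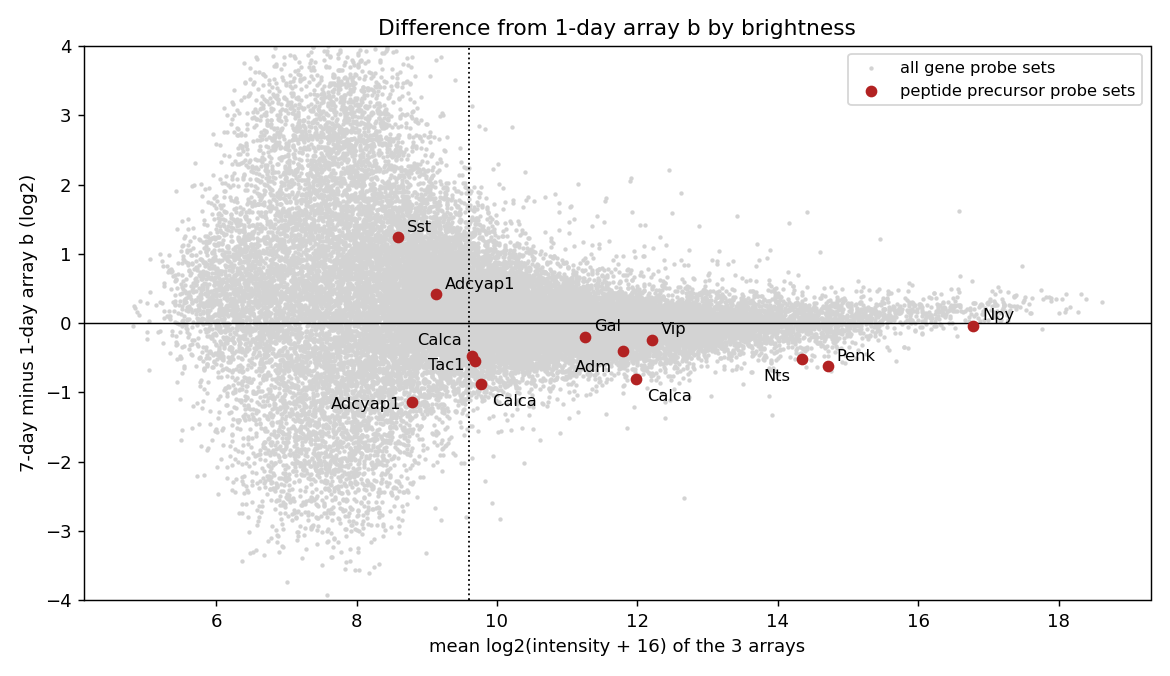
Difference between the 7-day array and 1-day array b (log2) against the mean log2(intensity + 16) of the 3 arrays, with all 31042 gene probe sets in grey and the 13 peptide precursor probe sets in red (27 grey points fall outside the plotted range of 4). The dotted line is the filter at 9.60, and all 10 red points to its right lie below 0, from Calca at -0.89 to Npy at -0.04.

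Cell markers moved between the same arrays in both directions. On the 7-day array 8 of 8 adrenal cortex markers read higher than on 1-day array b, with a median of 0.40, which was 0.18 with quantile normalisation and 0.22 with median centring. Of the 11 chromaffin markers 5 read lower and 6 higher, with a median of 0.20, which was -0.14 with quantile normalisation. Of 8 neuron markers 4 read lower (median 0.00), of 7 endothelial markers 3 (median 0.04) and of 7 leukocyte markers 6 (median -0.10). The part of any of these in the peptide values was not tested.

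The machinery that turns precursors into peptides was measured on the same arrays. Of 12 genes of peptide processing 11 were on the array, all 11 passed the filter and 0 were called by limma. On the 7-day array 9 of the 11 read lower than on 1-day array b, against 51.4% of all 9292 genes, and their median was -0.19, against -0.01 for all genes. Relative to both 1-day arrays, 1 gene lay above both and 2 below both, against 24.8% and 24.9% of all genes. Qpct, which closes the amino end of peptides such as neurotensin to pyroglutamate, had the lowest difference from the 1-day arrays of the 11 genes. It read 801 on the 7-day array, against 1511 on 1-day array a and 1632 on 1-day array b. Qpct stood below both, by 0.90 and 1.01, though its value on 1-day array a was little above the near-background line of 1461 there.

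Pam, which amidates the carboxyl end of neuropeptide Y, CGRP and many other peptides, read 42629 on the 7-day array, against 9935 on 1-day array a and 48705 on 1-day array b. The convertase genes Pcsk5 and Pcsk6 stood 0.51 and 0.47 below 1-day array b. Pcsk5 was 0.48 above 1-day array a, where Pcsk6 was near background. A second Pcsk5 probe set that passed the filter read 3905 on the 7-day array, against 472 on 1-day array a, near background, and 4215 on 1-day array b. Ctsl, a protease that also cuts proenkephalin, stood at -0.01 relative to 1-day array b and 1.59 above 1-day array a on its brighter probe set. Its second probe set went the other way against array a, with 3191 on the 7-day array, against 4694 on 1-day array a and 3734 on 1-day array b.

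Of 46 other peptide precursors 40 were on the array, 10 passed the filter and 0 were called by limma. Of these 10, 5 read lower and 5 higher than 1-day array b, with a median of 0.00. Whether the 10 differ from the members was not tested. Ppy, Npff and Agt were under the cut-off of 9.60 on the 7-day array and 1-day array b, so they passed only through 1-day array a. Against array b, Ppy and Agt were among the 5 higher and Npff among the 5 lower. Uts2, the precursor of the vasoconstrictor urotensin, read 3563 on the 7-day array, against 3822 on 1-day array a and 1602 on 1-day array b. Pdyn, the prodynorphin gene and the opioid partner of Penk, read 8974 on the 7-day array, against 7082 on 1-day array a and 5786 on 1-day array b. Pdyn was thus above both, by 0.34 from array a and 0.63 from array b. Penk read 1.00 above 1-day array a and 0.62 below 1-day array b, so the 2 genes differed in direction against array b only.

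Scg2, the precursor of secretoneurin, read 83993 on the 7-day array, against 13444 on 1-day array a and 82834 on 1-day array b, level with array b (0.02, and -0.15 with quantile normalisation). Ppy, of pancreatic polypeptide, stood 0.67 above 1-day array b and 1.30 below 1-day array a on the log2 scale. Npff and Agt, for neuropeptide FF and angiotensinogen, read 480 and 533 on the 7-day array, against 3956 and 2763 on 1-day array a and 618 and 427 on 1-day array b. For these 2 dim genes 1-day array a was the high one, as it was for Adcyap1 and Sst.

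All 28 receptor genes of the members were on the array, and 8 passed the filter, with 0 called by limma. On the 7-day array 6 of the 8 read lower than on 1-day array b (median -0.16), against 51.4% of all genes. Ramp3 and Ramp2 make the calcitonin receptor-like receptor bind adrenomedullin. Neither probe set of Calcrl, the gene of that receptor, passed the filter. The brighter one read 315 on the 7-day array, against 1555 on 1-day array a and 123 on 1-day array b. Ramp3 read 3305 on the 7-day array, against 94.8 on 1-day array a and 3688 on 1-day array b, and Ramp2 read 6737, against 2621 and 7908. Their differences from 1-day array b were -0.16 and -0.23. Ramp2 stood 1.36 above 1-day array a, where Ramp3 was near background.

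Adcyap1r1, the receptor for PACAP, had 4 probe sets, of which 2 passed the filter. The higher of these read 12030 on the 7-day array, against 11475 on 1-day array a and 16188 on 1-day array b, which put it 0.43 below array b and 0.07 above array a. The other read 525 on the 7-day array, against 3277 on 1-day array a and 678 on 1-day array b. This one was under the filter cut-off on the 7-day array and 1-day array b and passed only through array a. Both thus read lower at 7 days than on 1-day array b, but they parted in direction against 1-day array a. The 2 probe sets under the filter went the other way against array b. They read 410 and 345 on the 7-day array, against 150 and 203 on 1-day array b, where both were near background. The tachykinin receptor genes Tacr3 and Tacr2 stood 0.63 and 0.33 above 1-day array b, and the somatostatin receptor gene Sstr1 stood at -0.05. Against 1-day array a these 3 differences were -1.03, 0.24 and -1.94. Sstr1 read 717 on the 7-day array and 745 on 1-day array b, under the filter cut-off, and passed only through array a.

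**Figure D4:**
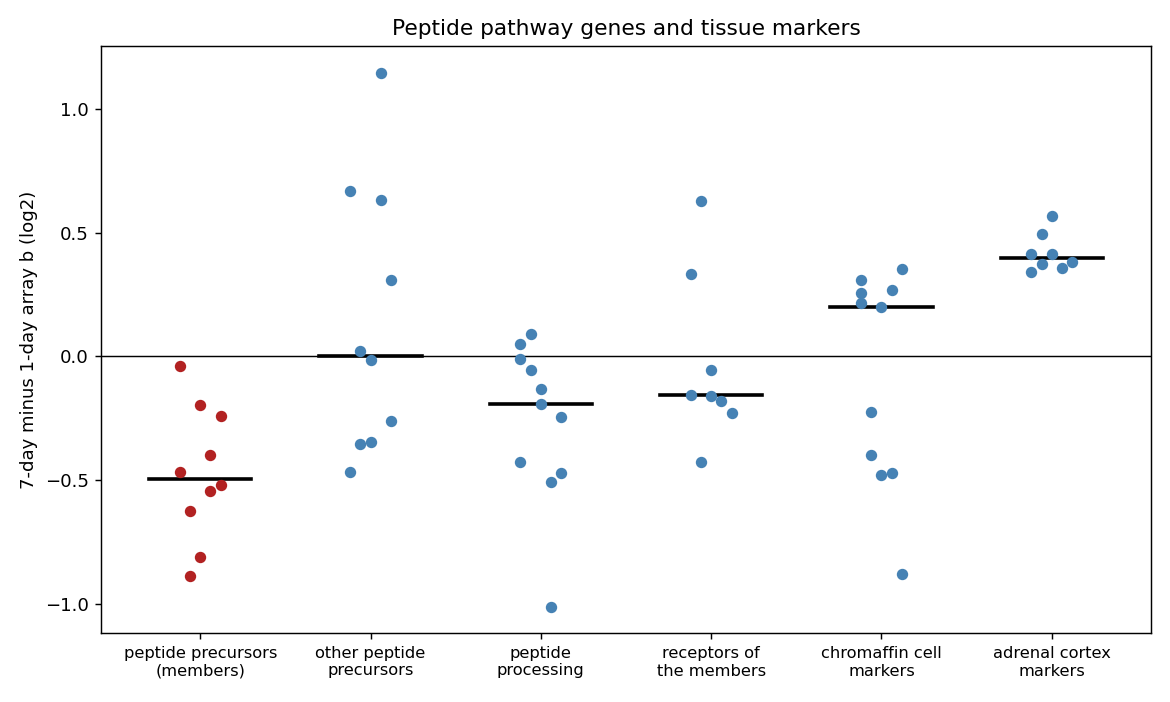
Difference between the 7-day array and 1-day array b (log2) for members and genes that passed the filter, with 1 point per probe set (members) or gene (other lists) and a bar at each median. The members have a median of -0.49, peptide processing genes -0.19, receptors -0.16, other peptide precursors 0.00, chromaffin markers 0.20 and cortex markers 0.40.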

How the data were processed

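RNA was measured on 3 one-colour oligonucleotide arrays. The deposited values are linear intensities, 1 for each probe set on each array, summarised and scaled by the authors with software that the sources used here do not name. The 2% trimmed mean was 2501 on every array, so the arrays appear to share that scale, and a difference in total RNA would not show. Groups and letters came from the sample titles. Gene comparisons left out 57 control probe sets. Names came from the platform annotation (20826 probe sets with 1 symbol, 436 with several, 9780 with none), and 20758 were updated through Entrez identifiers in RefSeq's gene table of GRCr8.

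Values were turned into log2(intensity + 16), which shrinks differences of dim probe sets. The two-sided test was limma (lmFit, then eBayes with trend = TRUE, Benjamini-Hochberg at 0.05) on the 15521 probe sets with a mean log2 level of at least 9.60. With 1 array at 7 days it assumes that array varies like the 1-day arrays, and limma estimated infinite prior degrees of freedom. A gene in a list was its kept probe set with the highest mean, and other probe sets of a gene can differ. From each pathway list the text names the 3 genes with the largest difference from the 1-day mean and the 3 with the largest from 1-day array b. Members and lists were chosen with earlier results of these data known. Alternatives were pseudocounts of 1 and 64, quantile normalisation, median centring, removal of a loess trend (span 0.5), a filter at the 75th percentile or none, limma with trend = FALSE or robust = TRUE, and leaving out each 1-day array. R 4.3.3, limma 3.58.1, Python 3.11.15 and matplotlib 3.10.9 were used, and the fit was tested on simulated data. The simulated arrays had less spread than the 1-day pair, so that test does not show what the fit can detect here. Precision is limited by having only 3 arrays.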

Additional observations from a re-analysis of the deposited data

How the results depend on the processing

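Limma called 0 probe sets and 0 members under all 9 alternatives run for it: both pseudocounts, 3 scalings, no filter, the 75th percentile filter, no trend and robust = TRUE. The count of members below both 1-day arrays became 5 with quantile normalisation and 2 with median centring. With quantile normalisation Tac1 left this set, and Nts and Adcyap1 1394908_at entered it. With the trend removed Nts took the place of Tac1. The count of members at least 2-fold beyond both became 0 with a pseudocount of 64. Of 65 member differences from the 1-day mean under other scalings and pseudocounts, 58 kept their direction and 7 did not. Penk turned to -0.13 with quantile normalisation and -0.16 with the trend removed, Tac1 to 0.085 with quantile normalisation, and Nts to 0.49 with median centring. Sst turned to 0.16, 0.21 and 0.25 with quantile normalisation, median centring and the trend removed. Leaving out one 1-day array moved most values. The counts then ran from 2 to 7 above, 6 to 11 below and 2 to 7 at least 2-fold from the 1-day array left, and 9 of 26 differences changed sign. The ranges were -0.039 to 1.10 for Npy, -0.62 to 1.00 for Penk, -0.20 to 0.69 for Gal, -0.52 to 0.46 for Nts, -0.47 to 1.23 for Calca 1369116_a_at, -0.40 to 1.51 for Adm, -2.56 to 0.42 for Adcyap1 1394908_at, -0.24 to 0.57 for Vip and -1.85 to 1.24 for Sst. The lower end came without array a, except for Adcyap1 and Sst, where it came without array b. The values for Sst, and for Adcyap1 relative to array b, are between background readings. The causes were not tested. No paired analysis was possible because the 7-day group has 1 array. Dim signal limits Adcyap1 and Sst, which were near background on 2 and 3 of the 3 arrays.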
